A study of Drosophila melanogaster with 2 samples.

Results

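Insulator and architectural proteins are themselves encoded by genes with promoters, and the peaks of CG6683 tagged with GFP at those genes are described here. The genes are 10 listed by name, CTCF, su(Hw), BEAF-32, pita, ZIPIC, M1BP, Dref, Cp190, mod(mdg4) and Chro, out of 13945 protein-coding genes on the main chromosome arms. All 10 were found in the annotation. The data come from 1 group of whole Drosophila melanogaster embryos aged 6 to 24 hours, both sexes together, from a transgenic line that stably expresses CG6683 with GFP at its C-terminus. Their chromatin was precipitated with anti-GFP antibody for ChIP-seq, in 2 biological replicates labelled 2 and 3. Both replicates were of the same line, no cell type was separated, and no untagged line was analysed here.

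The values are those of peak lists on the build dm6. A pooled list, made by the authors from both replicates, held 29984 candidate peaks on the main arms, each with a signal value in no stated unit, and each replicate had a candidate list of its own. The optimal list is the authors' list after thresholding on the irreproducible discovery rate (IDR). It had 2964 peaks on these arms, and they were the top 2964 pooled candidates by signal, down to a signal of 170.6. Rank here means the place by signal within a list, 1 being the highest. A summit, the position in a peak that its list marks as such, is called a promoter summit where it lies within 500 bp of any annotated start of a gene. Its offset is the distance to the nearest start of that gene, negative where it lies upstream. The lists carry no read counts, so the depth behind a value is unknown.

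Insulators are DNA elements that separate regulatory domains or block an enhancer from a promoter. In flies they are bound by zinc-finger and BED-finger proteins such as CTCF, Su(Hw), BEAF-32, Pita and ZIPIC, which recruit the BTB-domain cofactors Cp190 and Mod(mdg4). Several of these proteins, with Chro, Dref and M1BP, are also known at promoters of broadly expressed genes and at borders between chromatin domains.

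The letters at or near several of the summits show what the peaks covered. For Cp190, Chro and Dref the stretch between the start of the gene and the start of the neighbour that runs the other way is given. For M1BP the part of the 201 bases centred on the summit that lies outside annotated untranslated regions is given. The Chro summit lay in a 5′ untranslated exon, so 30 bases around a match are shown there, and likewise for the internal peak of mod(mdg4). The 30 bases of mod(mdg4) hold the match but not the summit, which is at 21365471. CTCF and ZIPIC are shown as genes whose promoters were not in the optimal list. All are from the Release 6 genome of dm6, 5′ to 3′ in the direction of the gene named first. Capitals mark matches on either strand to 5 words: TATCGATA, the DNA replication-related element of Dref and BEAF-32, the shorter CGATA of BEAF-32, GGTCACAC from Motif 1 bound by M1BP, TGCATA from the Su(Hw) consensus and AGNNGGCGC from that of CTCF. No words were searched for Pita and ZIPIC.
M1BP/CG8202 (chr3R:8731898-8732090, minus strand): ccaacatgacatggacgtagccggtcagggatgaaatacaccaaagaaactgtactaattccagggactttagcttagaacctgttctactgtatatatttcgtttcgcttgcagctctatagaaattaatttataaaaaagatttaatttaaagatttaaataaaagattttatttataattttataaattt
Dref/RpL13 (chr2L:9967230-9967312, minus strand): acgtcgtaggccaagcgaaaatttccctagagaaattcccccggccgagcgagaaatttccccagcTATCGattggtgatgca
CTCF intron (chr3L:7356465-7356580, minus strand): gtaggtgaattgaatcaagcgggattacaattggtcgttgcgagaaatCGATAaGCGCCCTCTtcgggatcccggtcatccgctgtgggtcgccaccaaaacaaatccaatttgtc
ZIPIC upstream (chr3R:30036888-30037002, minus strand): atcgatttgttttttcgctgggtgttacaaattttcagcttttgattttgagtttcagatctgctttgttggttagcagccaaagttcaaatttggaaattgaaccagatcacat
Cp190/CG4338 (chr3R:15275242-15275521, minus strand): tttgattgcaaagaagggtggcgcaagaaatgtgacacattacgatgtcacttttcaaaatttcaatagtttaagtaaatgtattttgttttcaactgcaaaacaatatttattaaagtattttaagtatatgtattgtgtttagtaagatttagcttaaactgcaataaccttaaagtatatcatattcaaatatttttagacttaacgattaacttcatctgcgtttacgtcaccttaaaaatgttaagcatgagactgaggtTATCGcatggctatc
Chro/Ssl1 (chr3L:22878985-22879088, minus strand): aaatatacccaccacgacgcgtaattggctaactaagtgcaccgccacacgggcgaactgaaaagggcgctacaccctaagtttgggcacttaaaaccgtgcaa
Chro summit (chr3L:22878879-22878908, minus strand): ttagtttaaagcTATCGacaggcaatacac
mod(mdg4) internal summit (chr3R:21365419-21365448, minus strand): ccaataccaaTATGCATAttttgctataat

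Of the 10 genes, 5 had an optimal promoter peak, namely M1BP, Dref, BEAF-32, Cp190 and Chro, where 13.3% of all protein-coding genes had one. All 10 had at least a pooled candidate summit at a start, where 50.5% of all protein-coding genes did. Among the 7038 protein-coding genes with such a candidate, 26.4% had an optimal promoter peak. The strongest promoter summit of the 10 genes had a median rank of 3090 in the pooled list, against 6509 over those 7038 genes. The genes were not a random draw, so the counts are a description. mod(mdg4) and pita had optimal peaks elsewhere in or near the gene. CTCF, su(Hw) and ZIPIC had none in the gene or within 5 kb.

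**Figure D1:**
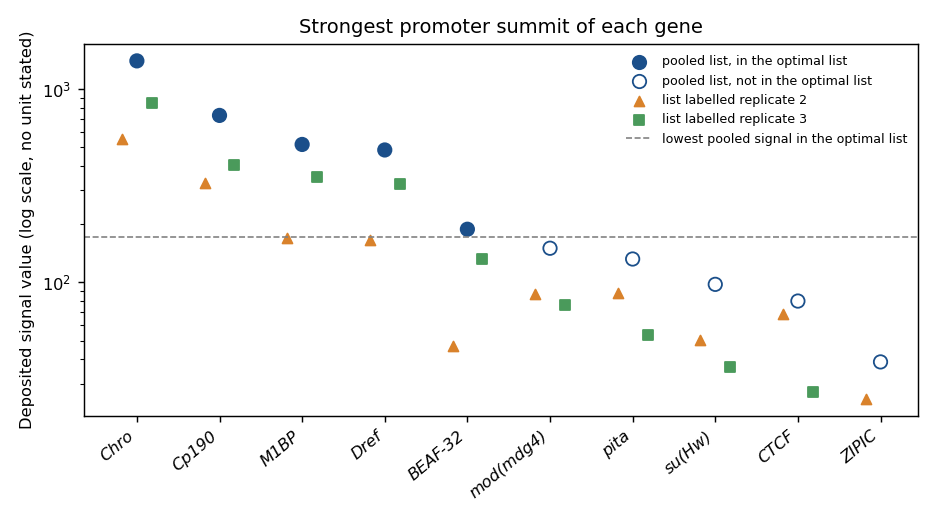
Deposited signal value (log axis) of the strongest promoter summit of each of the 10 genes in the pooled list (circles, filled where the peak is in the optimal list) and of its match in the lists labelled replicate 2 (triangles) and replicate 3 (squares). Pooled values run from 1393 at Chro to 38.8 at ZIPIC, and the dashed line is the lowest signal of an optimal peak, 170.6.

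M1BP and Dref, which encode DNA-binding factors of core promoters, had peaks of like strength. M1BP (FBgn0037621, chr3R:8729790-8731698, minus strand) is a zinc-finger protein of Motif 1 promoters. Its peak at chr3R:8731865-8732127 had a pooled signal of 516 (rank 401), with 169 in the list labelled replicate 2 (rank 661) and 349.9 in that labelled replicate 3 (rank 323). The peak was thus high in all 3 lists. Its summit was intergenic, at -300 bp from M1BP but at -93 bp from CG8202, which starts 393 bp from M1BP on the opposite strand. The peak covers the start of CG8202 but not that of M1BP. Among the 5 genes this summit lay farthest from its own gene's start. With a window of 200 bp it was no longer a promoter peak of M1BP. By pooled signal, the genes next to M1BP were CG2811 (517) and CG13384 (515).

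Dref (FBgn0015664, chr2L:9964147-9967229, minus strand) is the BED-finger activator of replication and growth genes. Its peak at chr2L:9967120-9967444 had a pooled signal of 483 (rank 457), with 166 in the list labelled replicate 2 (rank 694) and 321 in that labelled replicate 3 (rank 391). M1BP and Dref both ranked higher in the list labelled replicate 3. The summit was intergenic, at -51 bp from Dref and -33 bp from RpL13, a gene of the large ribosomal subunit that starts 84 bp from Dref on the opposite strand. The peak covers both starts, so it cannot be given to Dref alone. The genes next to it by signal were aph-1 (484) and CG6550 (482).

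BEAF-32 (FBgn0015602, 14770469 to 14772630 of arm 2R, plus strand) was the weakest of the 5. It encodes a BED-finger protein that binds clustered CGATA words. The peak, from 14771082 to 14771525, had a pooled signal of 188 (rank 2545), with 46.9 in the list labelled replicate 2 (rank 7800) and 132 in that labelled replicate 3 (rank 2023). It was not among the 2964 strongest peaks of the list labelled replicate 2. The summit lay 3 bp downstream of the last of 3 annotated starts, in a 5′ untranslated exon, and at -9 bp from a start of the antisense RNA gene asRNA:CR42254. As the peak covers both that last start and the start of the antisense RNA, it cannot be given to BEAF-32 alone. At the first start, a candidate at -102 bp had a signal of 112 (rank 5749) and was not in the optimal list. By signal, the genes next to BEAF-32 were CG7565 (188) and comt (188).

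**Figure D2:**
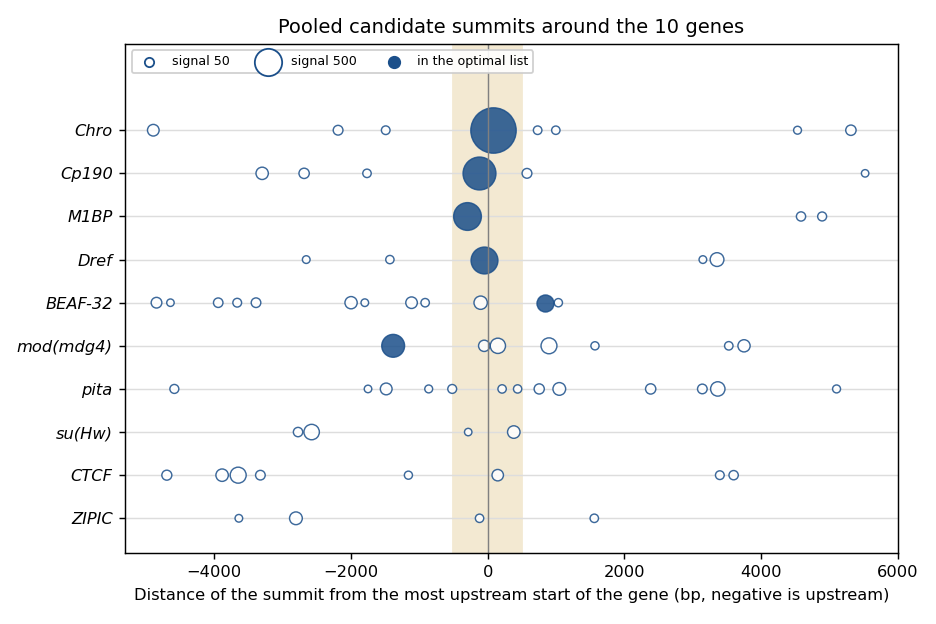
Distance of every pooled candidate summit from the most upstream start of its gene (bp), 1 row per gene, with the area of a circle rising with the pooled signal and filled circles for the optimal list; the shaded band is 500 bp on either side and summits beyond the axis are not drawn. Filled circles lie in the band for Chro, Cp190, M1BP and Dref, at an internal start for BEAF-32, and at -1382 bp for mod(mdg4).

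pita (FBgn0034878, 23548967 to 23554712 of arm 2R, minus strand) encodes a zinc-finger protein with a ZAD domain that recruits Cp190. Its strongest promoter candidate had a pooled signal of 132 (rank 4437), with 87.6 in the list labelled replicate 2 (rank 2701) and 53.7 in that labelled replicate 3 (rank 8576). It was among the 2964 strongest in the list labelled replicate 2 but not in the optimal list. The summit was 207 bp downstream of the internal start of pita and 31 bp downstream of the start of Dcp-1, an effector caspase gene that runs the other way within an intron of the longer pita transcript. The other 3 promoter candidates had signals between 37.7 and 54.3. An optimal peak past the end of pita had a pooled signal of 257 (rank 1529), with 131 in the list labelled replicate 2 (rank 1179) and 123 in that labelled replicate 3 (rank 2316). Its summit was 75 bp downstream of the start of wmd and at -163 bp from that of levy, a gene of cytochrome c oxidase.

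CTCF, su(Hw) and ZIPIC, all genes of zinc-finger insulator proteins, had no optimal peak within 5 kb. CTCF (FBgn0035769, chr3L:7353578-7356713, minus strand) is the fly counterpart of the vertebrate insulator protein. The candidate in its first intron was at 148 bp with a pooled signal of 80.1 (rank 9279), with 68.5 in the list labelled replicate 2 (rank 4187) and 27.2 in that labelled replicate 3 (rank 23198). The 2 replicate summits taken as its match were 70 and 252 bp from the start. The strongest candidate near CTCF, 165 (rank 3118), was at -3650 bp, at -100 bp from a start of pst and -198 bp from one of Sec63. It was the strongest candidate near the 10 genes that was not optimal, and the weakest that was optimal had 172, past the end of mod(mdg4).

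su(Hw) (FBgn0003567, chr3R:14304455-14308589, minus strand) encodes the protein that binds the gypsy insulator. The stronger of its promoter candidates was at 383 bp with a pooled signal of 97.6 (rank 7012), with 50.6 in the list labelled replicate 2 (rank 6924) and 36.5 in that labelled replicate 3 (rank 15629). The other was at -284 bp with 28.7 (rank 29869), near the end of the list, and at -216 bp from Polr2I, which encodes a subunit of RNA polymerase II. ZIPIC (FBgn0039740, chr3R:30035240-30036870, minus strand), whose product also recruits Cp190, had the weakest promoter candidate of the 10 genes. It was at -118 bp with a pooled signal of 38.8 (rank 22519), matched by 25.04 in the list labelled replicate 2 (rank 17799) and by no summit in that labelled replicate 3.

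Among the cofactors, Cp190 (FBgn0000283, chr3R:15270432-15275241, minus strand) and Chro had the strongest promoter peaks of the 10 genes. Cp190 is the BTB and zinc-finger cofactor recruited by many fly insulator proteins. The peak at chr3R:15275191-15275589 had a pooled signal of 728 (rank 201), with 325 in the list labelled replicate 2 (rank 159) and 404 in that labelled replicate 3 (rank 244). The peak was high in all 3 lists. Its summit was intergenic, at -130 bp from Cp190 and -151 bp from CG4338, which starts 281 bp from Cp190 on the opposite strand. It was therefore nearly midway between both starts. The peak covers both, so it cannot be given to Cp190 alone. GC content within 100 bp of this summit was 22.9%, and 2.59% of the 1468 optimal promoter peaks had a lower one. The genes next to it by signal were CG46456 (730, offset -183 bp) and CG7601 (728, offset -104 bp).

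Chro (FBgn0044324, chr3L:22873702-22878984, minus strand) encodes the chromodomain protein Chromator, a component of polytene interbands that is also part of the spindle matrix. The peak at chr3L:22878709-22879115 had a pooled signal of 1393 (rank 26), with 549 in the list labelled replicate 2 (rank 37) and 843 in that labelled replicate 3 (rank 22). It stood near the top of every list. The summit lay 78 bp downstream of the first of 3 annotated starts, in a 5′ untranslated exon. Ssl1, which encodes a subunit of the general transcription factor TFIIH, starts 105 bp from Chro on the opposite strand, and the summit was at -183 bp from it. This peak too covers both starts and cannot be given to Chro alone. The other promoter candidates of Chro, near its last start at -68 and 198 bp, had signals of 40.6 and 38.9. The genes next to Chro by signal were PNPase (1398) and Art3 (1381).

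mod(mdg4) (FBgn0002781, chr3R:21350846-21377401, minus strand), the longest of the genes at 26556 bp, had 3 optimal peaks, and its own promoter carried none of them. The gene encodes many BTB proteins that share their first exons and differ in their last ones, which can be joined to the common exons by trans-splicing, and the annotation holds such last parts as separate pre-mod(mdg4) genes. At the start shared by its 22 transcripts, a candidate at 150 bp had a pooled signal of 150.0 (rank 3634), with 86.7 in the list labelled replicate 2 (rank 2749) and 76.3 in that labelled replicate 3 (rank 4910). A further candidate at 898 bp had a pooled signal of 163 (rank 3191). Both were below the lowest optimal signal.

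The strongest peak of mod(mdg4) was inside the gene. At chr3R:21365251-21365592, with its summit 11930 bp from the start, it had a pooled signal of 454 (rank 524), with 181 in the list labelled replicate 2 (rank 583) and 279 in that labelled replicate 3 (rank 534). The peak was high in all 3 lists. For mod(mdg4) itself the place is an intron, but the summit was 17 bp downstream of the annotated start of pre-mod(mdg4)-E, at -181 bp from those of pre-mod(mdg4)-C and pre-mod(mdg4)-AB, and at -138 bp from 7 pre-mod(mdg4) genes of the opposite strand. The other 2 optimal peaks were outside the gene. That at chr3R:21378611-21378881, with its summit at -1382 bp from mod(mdg4), had a pooled signal of 347 (rank 883) and was at -194 bp from tin, the homeobox gene of heart and visceral muscle. That at chr3R:21350110-21350297, past the other end, had a pooled signal of 172 (rank 2917) and no start within 500 bp. It had 102 in the list labelled replicate 2 (rank 2043) and 88.8 in that labelled replicate 3 (rank 3856). It was thus not among the 2964 strongest of the list labelled replicate 3.

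**Figure D3:**
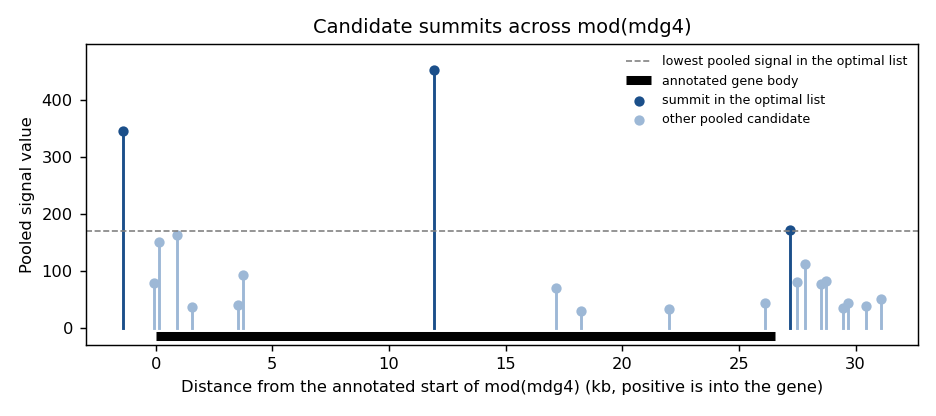
Pooled signal of the 21 candidate summits in or within 5 kb of mod(mdg4), by distance from its annotated start (kb, positive into the gene), with the gene body as a black bar. The 3 summits in the optimal list have signals of 347, 454 and 172, and the candidates at the start stay below the dashed line at 170.6.

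In 4 of the 5 genes with an optimal promoter peak, M1BP, Dref, Cp190 and Chro, a protein-coding gene on the opposite strand started within 500 bp of the summit, where this held for 53.0% of the 1855 genes with an optimal promoter peak. The partner's start was the nearer at M1BP and Dref, and the gene's own at Cp190 and Chro. Over the 5 genes the median offset was -51 bp, with 3 summits upstream and 2 downstream, against -145 bp over the 1855 genes (quartiles -237 and -71 bp).

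By the signal of the strongest promoter summit among the 7038 genes, Chro was number 17, Cp190 176, M1BP 326, Dref 371 and BEAF-32 1619. mod(mdg4) was number 2232, pita 2597, su(Hw) 3729, CTCF 4532 and ZIPIC 6586. The 10 genes thus spread from near the top to near the bottom. The median over the 5 optimal promoter peaks was 516, against 281 over the 1855 genes.

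**Figure D4:**
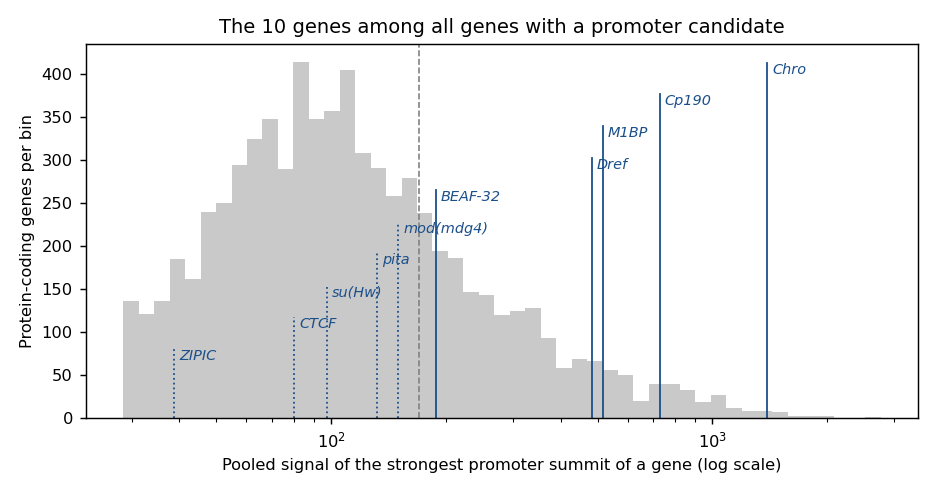
Number of protein-coding genes per bin of pooled signal of their strongest promoter summit (log axis), over the 7038 genes with such a summit, with the 10 genes as vertical lines (solid in the optimal list, dotted not; the height of a line carries no value). Chro, Cp190, M1BP and Dref lie in the upper tail, BEAF-32 just past the dashed line at 170.6, and ZIPIC near the lower end.

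All 5 optimal promoter peaks had a match in both replicate lists, where 97.1% of the strongest optimal promoter peaks of genes did. At these 5 the signal in the list labelled replicate 3 was higher than in that labelled replicate 2, with ratios from 1.24 at Cp190 to 2.82 at BEAF-32, against a median of 1.39 over such peaks (quartiles 1.08 and 1.76). At mod(mdg4), pita, su(Hw) and CTCF it was lower, with ratios of 0.880, 0.613, 0.721 and 0.397. The matched summits in the lists labelled replicate 2 and 3 were at 70 and 252 bp for CTCF. For pita they were at 251 and 123 bp from its internal start, so these ratios need not be of the same peak. Of 4226 strongest promoter candidates outside the optimal list, only 2588 had a match in both replicate lists. Those 2588 had a median ratio of 1.07 (quartiles 0.720 and 1.64). The signal has no stated normalization, so ratios between lists describe these lists only.

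With the 2964 strongest peaks of each replicate list in place of the optimal list, the counts were alike but the genes were not all the same. In the list labelled replicate 3, 5 genes had a promoter summit among them, the same as in the optimal list, where 12.8% of all protein-coding genes did. In the list labelled replicate 2 there were 6, with mod(mdg4) and pita in and BEAF-32 out, where 14.1% of all protein-coding genes did. M1BP, Dref, Cp190 and Chro were in both. On arm 2L, 96.9% of the dm6 candidates labelled replicate 2 had an identical interval and summit in the dm3 list labelled replicate 3, and 0 in that labelled replicate 2. Likewise 87.7% of the dm6 candidates labelled replicate 3 were in the dm3 list labelled replicate 2. The replicate numbers given here are those of the dm6 lists, and which library carries which number is uncertain.

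Counted over whole genes, 3 of the 10 had an optimal summit inside the gene body, namely BEAF-32, mod(mdg4) and Chro, where 9.04% of all protein-coding genes did. With 5 kb on either side there were 7, where 36.2% of all protein-coding genes did. The 10 genes and their flanks held 104 candidate summits, of which 9 were optimal, 5 at promoters, 1 elsewhere in a gene and 3 in the flanks. Over the main arms, 2964 of all 29984 pooled candidates were optimal, so optimal peaks were not a larger part of the candidates here. The number of candidates per gene ran from 3 at M1BP to 21 at mod(mdg4). Of the 104, 55 had a match in both replicate lists and 4 in neither, and the same shares over all candidates were not computed. For the promoter window, the summit nearest the limit on the inside was that of pita at 439 bp, and on the outside another of pita at -518 bp, with signals of 37.7 and 44.6.

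CGATA was the only one of the 5 words found within 100 bp of the summit at the 5 optimal promoter peaks. It was at 3 of them, those of Dref, BEAF-32 and Chro, where 34.3% of 1468 optimal promoter peaks had it in a window of the same length. CGATA was also at 3 of the other 5 genes' strongest promoter summits, those of CTCF, pita and ZIPIC. These are not optimal, and the share over such candidates was not computed. The match of ZIPIC runs into an annotated 3′ untranslated region and is not in the stretch printed above, and the match in that of Cp190 lies more than 100 bp from the summit. TATCGATA, which holds CGATA, was at none of the 10 summits, where 5.86% of the optimal promoter peaks had it. GGTCACAC was also at none, M1BP included, where 3.07% of the optimal promoter peaks had it. TGCATA was at the promoter candidate of pita and at the internal peak of mod(mdg4), there as a pair of overlapping matches. Of the 1468 optimal promoter peaks 13.1% had it, a set without the pita candidate, which is not optimal. AGNNGGCGC was at the candidate of CTCF, also not optimal, 43 bp from the summit, where 1.77% of the optimal promoter peaks had it. The words for CTCF and Su(Hw) were chosen after sequences had been seen, so these shares are no test of their matches. GC content at the 5 optimal promoter peaks ran from 22.9% at Cp190 to 44.3% at Dref, with 29.9% at M1BP, 35.3% at BEAF-32 and 38.3% at Chro, against a median of 34.3% over the 1468 (quartiles 29.4% and 40.8%).

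Other genes of the same machinery were counted in 4 groups, 38 genes in all. An optimal promoter peak was present at 10 of the 38, where 13.3% of all protein-coding genes had one, and a promoter candidate at 29, where 50.5% did. Of 11 other DNA-binding genes, Trl, which encodes GAGA factor, had an optimal promoter peak (signal 332, offset 164 bp), and the 3 Elba genes and insv had no promoter candidate. Of 12 cofactor genes 4 had an optimal promoter peak, led by shep (394, -175 bp), whose RNA-binding product modulates the gypsy insulator. It was followed by the BET bromodomain gene fs(1)h (221, -230 bp), the RNA helicase gene Rm62 (194, 225 bp) and e(y)2 (189, -166 bp). pzg, whose product Z4 works with Chro, had a candidate of 149.6 at -307 bp that was not in the optimal list.

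Of 8 cohesin genes, which encode the ring that holds sister chromatids and its regulators, 3 had an optimal promoter peak, where 13.3% of all protein-coding genes had one. They were pds5 (608, -182 bp), SA1 (316, -95 bp) and SMC1 (177, -96 bp). The kleisin gene vtd and the loader gene Nipped-B had no promoter candidate. On arm 3L, which holds vtd, the last pooled candidate ended at 22890384 of 28110227 bp. Whether vtd and Nipped-B lie where the lists hold candidates was not checked, so a missing candidate need not mean a lack of signal. Of 7 condensin genes 2 had an optimal promoter peak, against the same 13.3% of all protein-coding genes. They were SMC2 (203, -191 bp) and Cap-H2 (179, -199 bp). Of these 38 genes, 9 had a promoter summit among the 2964 strongest of the list labelled replicate 2, where 14.1% of all protein-coding genes did. There were also 9 in the list labelled replicate 3, where 12.8% of all protein-coding genes did. Trl, shep, fs(1)h, pds5 and SA1 were in both. Chro, Cp190 and pds5 had the highest promoter signals among the 10 genes and the 38.

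**Figure D5:**
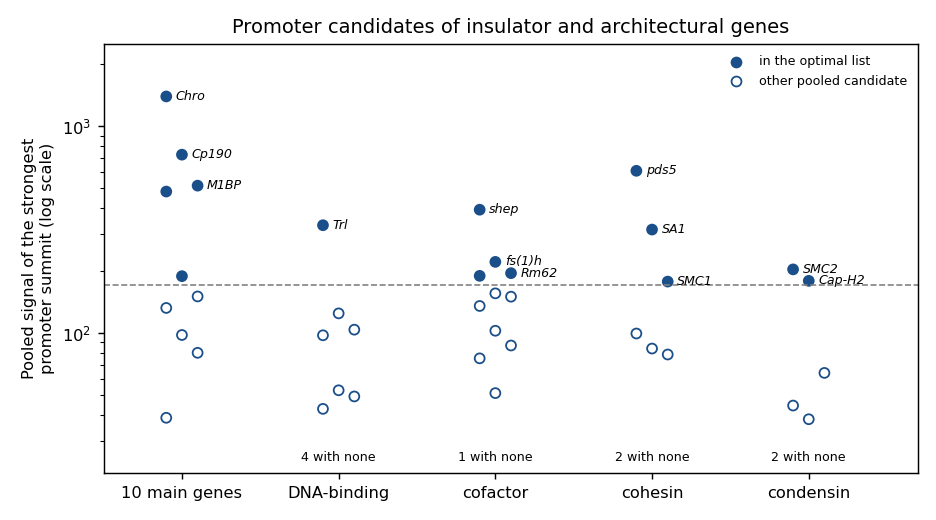
Pooled signal (log axis) of the strongest promoter summit of each gene, for the 10 main genes and for 4 groups of related genes, filled where the peak is in the optimal list. Up to 3 leading genes with an optimal peak are named per group, genes with no promoter candidate are counted at the foot, and the dashed line is at 170.6.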

How the data were processed

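Peak lists of 2 samples of 1 group, labelled biological replicates 2 and 3, were used on dm6. Per the labels, chromatin was sonicated to 200 to 800 bp. Per the deposited README files, each candidate list derives from its replicate's alignment and 1 further file they do not describe, the pooled list from both alignments, and the optimal list from these 3 lists. The labels name a possible control. Aligner, peak caller and IDR threshold were not given in the sources used. The signal value per peak is used as deposited, with no normalization stated, to rank peaks within a list. The −log10 q value deposited per peak was 3.03 for every optimal peak and could not rank them. No read counts were used.

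Genes came from Ensembl release 115 and sequence from the Release 6 RefSeq genome. Coordinates are 1-based. A replicate summit within 200 bp of the pooled summit was its match. The 10 genes, the other lists and the words were chosen with earlier results of these data known. An earlier table of consensus words was not used here, and the words for CTCF and Su(Hw) were chosen after sequences had been seen. Named genes are the 10, up to 3 of each other group by signal at an optimal promoter summit, genes with a start within 500 bp of a named summit, and neighbours in rank. pzg, e(y)2 and genes with no candidate were named after their values were seen. No test was made, since there is 1 group and the members were chosen. The assignment of summits to starts was tested on simulated data. Alternatives were the promoter window, the start used, a stricter list, each replicate list alone, the flank and the match of summits. Python 3.11.15, NumPy 2.4.6, pandas 2.3.3 and matplotlib 3.10.9 were used.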

Additional observations from a re-analysis of the deposited data

How the results depend on the processing

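The number of the 10 genes with an optimal promoter peak was 5, and it lay between 4 and 6 under every alternative: 4 with a window of 200 bp, with the upper 50% of optimal peaks or with the most upstream start only, 5 with a window of 1000 bp or with any base of the peak counted, and 5 or 6 with either replicate list alone. Chro, Cp190 and Dref were counted under all of these. Shares of all protein-coding genes are given above for the main setting and for the replicate lists alone. They were not computed for the other settings, so how those counts compare with all genes is unknown. The median offset of the members' optimal promoter summits was -51 bp and changed sign in 1 setting. With either replicate list alone it was between -43 and 18 bp, the positive value being that of the list labelled replicate 2, where mod(mdg4) and pita entered and BEAF-32 left. The median rank of 3090 was between 2023 and 2725 with either replicate list alone, over those genes with a candidate there. The related genes with an optimal promoter peak numbered 10 of 38, and 4 with the upper 50% of optimal peaks, again without a share of all genes. Under the other alternatives the counts stayed within 1.5 times and the medians within the spread between the replicate lists. No paired analysis was possible because there is 1 group. Depth is unknown, so how far it limits the weaker candidates could not be measured. The dm3 lists were not converted.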
